A study of Mus musculus with 20 samples.

Results

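The chromatin of 7 genes for cytokine and growth factor receptors of the hematopoietic stem cell (HSC) was followed across 12 peak lists from sorted mouse HSC. The genes were taken by their symbols, Flt3, Tek, Igf1r, Csf2rb, Il6st, Tgfbr1 and Tgfbr2, out of 21631 protein-coding genes on chromosomes 1 to 19 and X of the GRCm38.p6 (mm10) annotation. Every peak inside a gene or within 20 kb of its annotated ends was counted for that gene. KO MycHet mice were Mx1-Cre+/-;mTORflox/flox;c-Myc+/flox, KO mice were Mx1-Cre+/-;mTORflox/flox, and WT control mice were Mx1-Cre-/-;mTORflox/flox. All were adult and all had received poly(I:C), which induces interferon and through it the Cre, so the WT controls also carry floxed Mtor alleles and the interferon stimulus. ChIP-seq for H3K27ac, for H3K4me3 and for MYC, a transcription factor, gave 1 KO and 1 WT library each. ATAC-seq for open chromatin gave 2 KO MycHet, 2 KO and 2 WT libraries. The labels do not say how many mice went into a library or which surface markers defined the sorted cells, and the Mx1 promoter acts in blood and other tissues.

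These receptors carry the outside signals that hold a stem cell at rest, expand it or direct it to a lineage. Flt3 and Tek (also called Tie2) are receptor tyrosine kinases for FLT3 ligand and the angiopoietins, and Igf1r is the receptor tyrosine kinase for insulin-like growth factors, which signals through PI3K and AKT towards mTOR. Csf2rb encodes the beta chain shared by the receptors for GM-CSF, IL-3 and IL-5, and Il6st encodes gp130, the chain shared by the IL-6 family of cytokines. Tgfbr2 binds TGF-beta and then activates Tgfbr1, the type I receptor kinase that phosphorylates SMAD proteins, a route known for restraining HSC division. H3K4me3 marks active or poised promoters, H3K27ac marks active promoters and enhancers, and an ATAC-seq peak marks accessible DNA.

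The lists were unequal in length, which bears on every count below. For H3K27ac the KO list had 20036 entries and the WT list 10078, for H3K4me3 they had 16019 and 15089, and for MYC 22086 and 8774. By ATAC-seq KO MycHet 1 and 2 had 47214 and 53722 entries, KO 1 and 2 had 19174 and 72149, and WT 1 and 2 had 17303 and 66531. Read depth is unknown, since the lists carry no counts. The score of a peak is the authors' peak caller value, never under 50, on a scale that is not stated, so the share of its own list that scored lower is given beside some scores. Mtor, the targeted gene, had a peak at its start in all 5 WT libraries and in none of the 5 KO and 2 KO MycHet libraries. Of 10 HSC marker genes, 7 had H3K4me3 at the start in KO and 7 in WT. Of all starts of genes with a known strand, 53.6% had H3K4me3 in KO and 52.3% in WT. Each of the 10 had an ATAC-seq peak at the start in at least 1 library, and that share was not computed over all starts. None of 4 T and NK cell markers had H3K4me3 or an ATAC-seq peak at the start in any library. MYC lay at 1 of the 4 in both genotypes and H3K27ac at 1 of the 4 in KO only. An ATAC-seq peak was lacking in every library at 3 of 5 B cell, 2 of 5 erythroid and 1 of 6 myeloid markers. It was lacking at 1 of 5 stromal or endothelial and 0 of 4 megakaryocyte markers, so openness was not particular to the HSC list. KO-only H3K27ac also lay at 3 of 10 HSC, 2 of 5 B cell and 2 of 4 megakaryocyte markers. It lay at 1 of 5 erythroid, 1 of 6 myeloid and 1 of 5 stromal or endothelial markers. Of all starts of genes with a known strand, 24.9% had H3K27ac in KO only. H3K4me3 lay at 1 of 5 B cell markers in each genotype, at 2 and 3 of 6 myeloid, 3 and 3 of 5 erythroid, 3 and 3 of 5 stromal or endothelial, and 1 and 3 of 4 megakaryocyte markers in KO and WT. The part of other cells in the results was not tested.

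The promoters of Flt3, Tek, Igf1r and Tgfbr1 are shown because H3K4me3 lay on each of them in both genotypes while their letters differ in CpG content and in the motif that MYC binds. Each runs from 250 bases before the transcription start to 30 bases from it on, from RefSeq (GRCm38.p6), 5′ to 3′ on the gene's strand. For Tek the table's transcription start lies inside the annotated gene. Capitals mark the E-box CACGTG in Flt3 and the GC box GGGCGG in Igf1r and Tgfbr1, and the Tek window holds neither and has no capitals.
Flt3, chr5:147400460-147400739, minus strand: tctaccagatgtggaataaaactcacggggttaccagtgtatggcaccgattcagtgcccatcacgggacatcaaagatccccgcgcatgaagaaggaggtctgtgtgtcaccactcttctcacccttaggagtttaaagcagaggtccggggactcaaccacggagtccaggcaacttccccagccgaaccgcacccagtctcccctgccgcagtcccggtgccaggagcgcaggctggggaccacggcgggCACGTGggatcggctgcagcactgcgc
Tek, chr4:94739039-94739318, plus strand: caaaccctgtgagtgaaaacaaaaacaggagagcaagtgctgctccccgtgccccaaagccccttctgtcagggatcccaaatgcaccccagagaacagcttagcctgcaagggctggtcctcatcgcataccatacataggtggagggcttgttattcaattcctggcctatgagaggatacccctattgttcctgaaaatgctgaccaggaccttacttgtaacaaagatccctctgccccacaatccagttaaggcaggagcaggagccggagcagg
Igf1r, chr7:67952007-67952286, plus strand: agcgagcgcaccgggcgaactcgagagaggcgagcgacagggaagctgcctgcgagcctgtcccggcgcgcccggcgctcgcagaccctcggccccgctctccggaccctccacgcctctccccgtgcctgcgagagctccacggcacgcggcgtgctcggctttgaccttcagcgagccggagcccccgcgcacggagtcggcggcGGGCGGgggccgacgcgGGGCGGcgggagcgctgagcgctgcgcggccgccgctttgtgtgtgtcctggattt
Tgfbr1, chr4:47352972-47353251, plus strand: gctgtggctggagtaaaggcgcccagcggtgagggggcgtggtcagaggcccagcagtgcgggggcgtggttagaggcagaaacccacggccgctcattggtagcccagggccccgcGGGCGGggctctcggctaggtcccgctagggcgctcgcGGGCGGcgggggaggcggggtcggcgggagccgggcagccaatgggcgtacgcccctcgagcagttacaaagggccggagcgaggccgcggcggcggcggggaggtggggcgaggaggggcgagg
A promoter was found in RefSeq for 6 of the 7 genes, all but Csf2rb. The Flt3 window was 60.7% G and C, and its E-box begins at base 4 of the transcript. The Tek window and that of a second Tgfbr1 start were the poorest in CpG, each at 0.16 of the number that its base composition would give, against 0.66 for Flt3, 1.12 for Igf1r, 0.91 for Il6st, 0.90 for the main start of Tgfbr1, 0.68 for Tgfbr2 and a median of 0.38 over 32619 promoters. GC boxes were found at 2 places in Igf1r, 3 in Il6st and 2 in Tgfbr1. Of all promoters of this length, 6.84% hold the E-box and 34.9% the GC box on either strand. The letters CGGAAG, a core of sites for ETS factors, are in 16.1% of all promoters on either strand. The RUNX letters TGTGGT are in 15.5% of them. The GATA letters AGATAA are in 10.8%. None of these 3 was in a window of the 6 genes, and no match overlapped another. A match of letters is no evidence of binding.

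All 7 receptor genes had H3K4me3 at the start in both genotypes, and none had MYC there in either. A peak was placed at the start when it came within 1 kb of it, or within 1 kb of either annotated end for Csf2rb, whose strand is not in the table. Of 17274 genes with a known strand, 50.9% had H3K4me3 at the start in both genotypes. MYC lay at 21.0% of these starts in KO and 9.58% in WT, so most genes lacked it there. At the Flt3 start there was no MYC peak in either genotype, and the E-box shown above lay within the window searched. H3K27ac reached the start of Tgfbr2 in KO and WT, with scores of 217 and 79.1, and the start of Il6st in KO only, with a score of 69.1. The other 5 genes had no H3K27ac at the start in either genotype, against 38.5% of all starts with it in KO and 14.2% in WT.

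**Figure D1:**
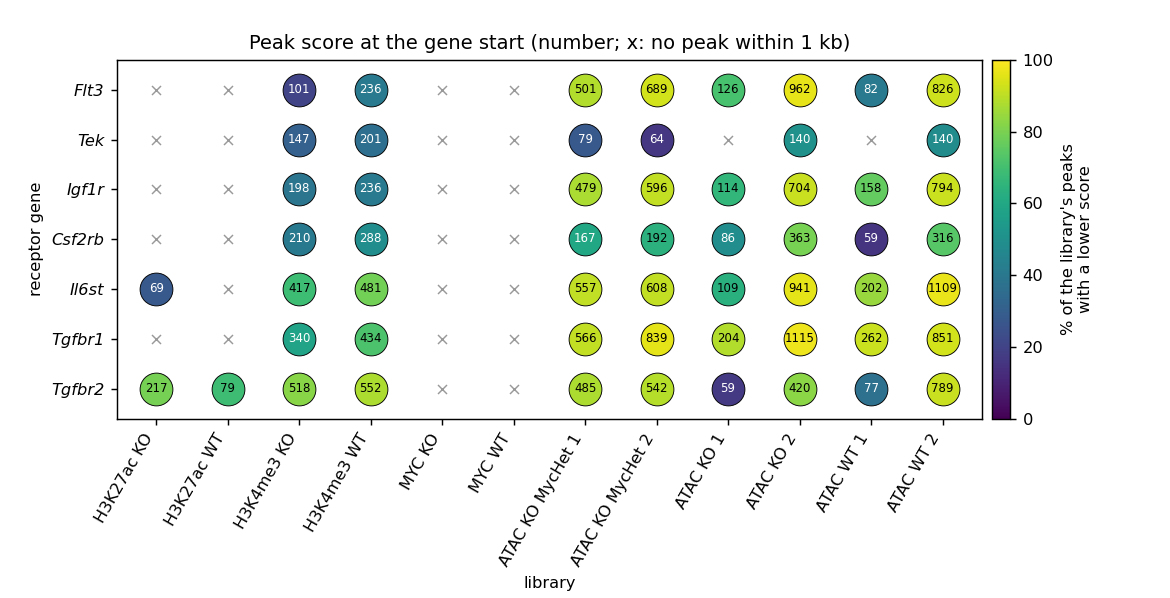
Score of the highest peak within 1 kb of the start of each receptor gene (rows) in each of the 12 libraries (columns), printed in the circle and coloured by the percentage of that library's peaks that scored lower, with a cross where there was no peak. H3K4me3 is filled for all 7 genes in both genotypes, MYC for none, and ATAC-seq for all but Tek in the shorter lists KO 1 and WT 1.

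At 6 of the 7 starts every library had an ATAC-seq peak, where 39.6% of all starts had one in all 6, and Tek was the exception. The Tek start scored 79.0 and 63.9 in KO MycHet, 140 in KO 2 and 140 in WT 2, with no peak in KO 1 or WT 1. The Flt3 start scored 501 and 689 in KO MycHet, 126 and 962 in KO, and 81.7 and 826 in WT. The Tgfbr2 start scored 485 and 542 in KO MycHet, 59.0 and 420 in KO, and 77.2 and 789 in WT. At Flt3 all 3 groups overlapped. At Tgfbr2 both KO MycHet libraries scored above both KO libraries, and the share of all starts with this order was not computed. At the other receptor starts open in all 6 libraries, the KO MycHet scores lay between those of KO 1 and KO 2. The KO and WT scores overlapped when pooled, but each group joins a short list and a long one. Set against the WT list of the same number, KO scored higher both times at Flt3 and Csf2rb and lower both times at Igf1r, Il6st and Tgfbr2. At Tgfbr1 the pairs went opposite ways, with 204 in KO 1 against 262 in WT 1 and 1115 in KO 2 against 851 in WT 2. Of all starts open in these 4 libraries, 42.6% were lower in KO both times and 11.7% higher both times. Between the longer lists, KO 2 scored lower than WT 2 at 3 of the 7 starts, against 71.6% of all starts open in both.

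The H3K4me3 score at the start was lower in KO than in WT at all 7 genes, whereas it was lower in KO at 39.9% of the 8798 starts with a peak in both. Flt3 stood furthest out: its KO score of 101 stood against 236 in WT, giving a ratio of 0.43 that 1.45% of all starts went below. The scores in KO and WT were 147 and 201 at Tek, 198 and 236 at Igf1r, and 210 and 288 at Csf2rb. They were 417 and 481 at Il6st, 340 and 434 at Tgfbr1, and 518 and 552 at Tgfbr2. The median ratio of KO to WT score was 0.78 over the 7 genes and 1.06 over all starts. By the place of a score within its own list, which does not need the lists to share a scale, the 7 genes were again all lower in KO, with a difference (KO minus WT) of -2.22 percentage points at Igf1r to -20.8 at Flt3. The shares of all starts lower in KO by that measure and within 5 kb of the start were 38.9% and 39.5%. At the 7 genes a window of 5 kb found the same peaks as 1 kb. Score divided by width was also lower in KO at all 7, but so it was at 68.9% of all starts. The widths went both ways. The Csf2rb peak was 6870 bp wide in KO and 2835 bp in WT, and 1.25% of all starts had a greater ratio of KO to WT width. The Flt3 peak was 2458 bp wide in KO and 2946 bp in WT, and 99.0% of starts had a greater ratio. The Tek peak was 1950 bp in KO and 2222 bp in WT, with 98.5% of starts above it. The median width ratio was 1.07 over the 7 genes and 1.22 over all starts. With 1 library per genotype there is no replicate spread to set these differences against, and all 7 come from the same pair of libraries.

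**Figure D2:**
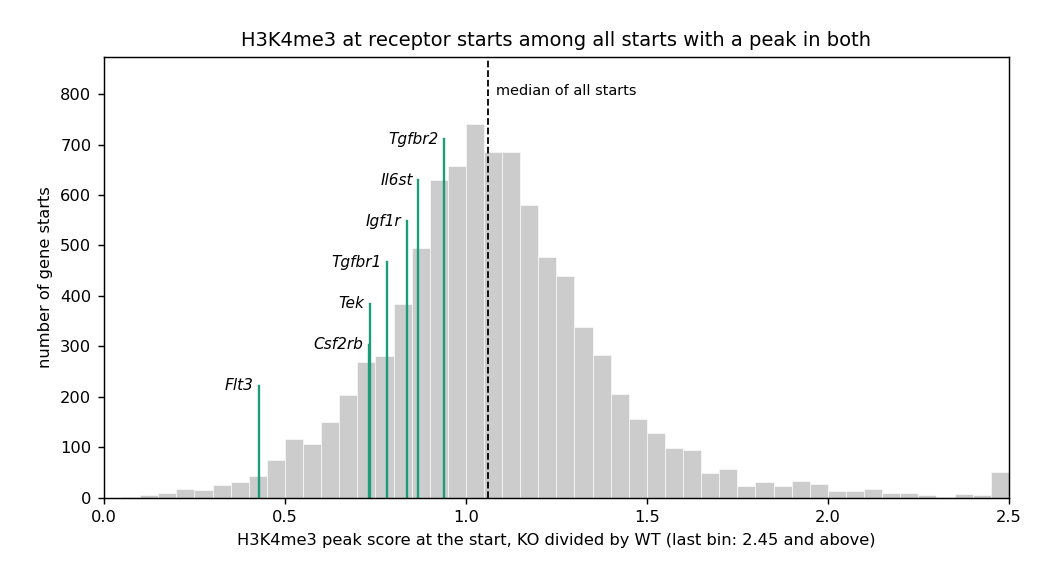
Grey bars count gene starts by the ratio of their H3K4me3 peak score in KO to that in WT, for the 8798 starts with a peak in both, and the dashed line is their median of 1.06. Green lines place the 7 receptor genes, all below a ratio of 1, from Flt3 at 0.43 to Tgfbr2 at 0.94 (line height has no meaning).

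Across the whole windows, starts included, H3K27ac and MYC peaks of the 2 genotypes were merged into regions wherever they shared at least 1 bp, and a region was KO only when it held no WT peak. The 7 genes had 26 H3K27ac regions, of which 14 were KO only, 5 WT only and 7 in both. Over the genome 61.0% of H3K27ac regions were KO only, 19.4% WT only and 19.6% in both, so the receptor genes lie near the background. For MYC they had 18 regions, with 10 KO only, 5 WT only and 3 in both, against 67.7% KO only, 17.8% WT only and 14.4% in both over the genome. When both lists were cut to the length of the shorter, keeping the best-scoring peaks, the H3K27ac regions were 4 KO only, 5 WT only and 7 in both, and the MYC regions 3 KO only, 6 WT only and 2 in both. With lists of equal length the KO-only excess for both targets was no longer seen. Over the genome 38.4% of H3K27ac regions were then KO only, 36.1% were WT only and 4019 of 15771 were in both. For MYC 41.8% were then KO only, 41.2% were WT only and 2538 of 14913 were in both. All 7 shared H3K27ac regions scored higher in KO, as did 91.3% of shared regions over the genome, and 2 of the 3 shared MYC regions did, against 63.6%. H3K4me3 had 12 regions, 11 in both genotypes and 1 in WT only, where 12.1% of all H3K4me3 regions were KO only, 5.94% WT only and 81.9% in both. With lists of equal length it again had none in KO only, against 8.59% of all H3K4me3 regions.

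Flt3 (ID 14255, chromosome 5, 147330741 to 147400489, minus strand), the receptor whose surface level separates multipotent progenitors from the most primitive HSC, had more H3K27ac regions than any other of the receptors, 8 in all. H3K27ac lay at 7 places in KO and 4 in WT, MYC at 4 and 3, and H3K4me3 at 3 and 3. A site upstream, at -18.0 kb from the start (chromosome 5, 147418002 to 147419011, overlapping the lncRNA gene D5Ertd605e) carried MYC with a score of 290 in KO and 237 in WT, above 97.8% and 97.4% of the peaks of those lists. It also carried H3K4me3 in KO and WT, with scores of 112 and 93.5, and H3K27ac in KO only, with a score of 152. The site was open in all 6 ATAC-seq libraries, with scores of 387 and 417 in KO MycHet, 63.8 and 510 in KO and 66.2 and 681 in WT. MYC and H3K4me3 were thus called there in both genotypes, and H3K27ac in KO only.

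Further sites lay within Flt3. A region 59.6 kb into the gene had the highest H3K27ac score at Flt3 in both genotypes, 283 in KO and 137 in WT, and was open in 5 of 6 ATAC-seq libraries, all but KO 1. The one 33.7 kb in scored 127 in KO and 64.5 in WT, and the one 7.12 kb in scored 113 and 77.4. The last of these held MYC as well, at 76.6 in KO and 63.3 in WT, and a low H3K4me3 peak in both. A region 53.2 kb in was different: MYC scored 86.4 there in KO and 193 in WT, H3K27ac scored 168 in KO with no WT peak, and no ATAC-seq library had a peak. Over the genome 80.7% of KO-only H3K27ac regions overlapped an ATAC-seq peak of at least 1 library, as did 10 of the 14 at the receptors and 2 of the 4 at Flt3. The open ones at Flt3 were the upstream site and a region 11.8 kb in, with a score of 80.4. No ATAC-seq peak lay under a KO-only H3K27ac region at -3.59 kb from the start, with a score of 88.8, or under a KO-only MYC region at -5.02 kb, with a score of 69.6. H3K27ac was WT only at 1 site, 76.8 kb from the start and past the end of the gene, with a score of 60.6. The 4 KO-only H3K27ac regions at Flt3 became 2 with equal numbers of peaks or within the gene body.

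**Figure D3:**
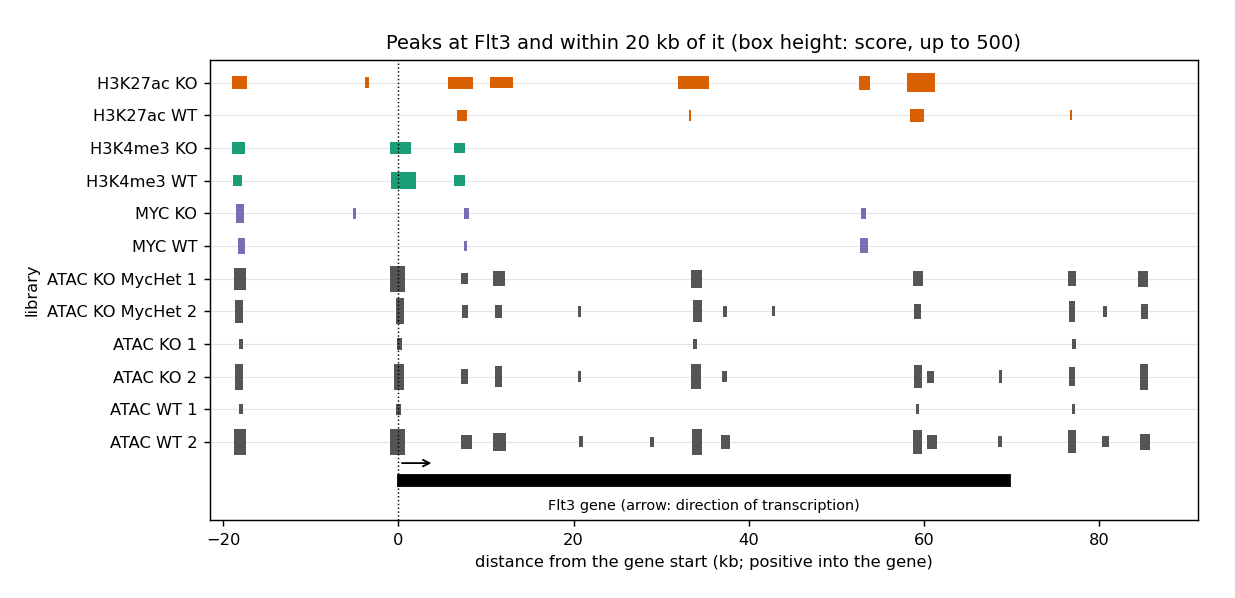
Peaks of each library (rows) at Flt3 against distance from its start in kb, drawn in the direction of transcription, with box width the peak width (never drawn under a visible minimum) and box height the score (capped for the highest). MYC boxes line up between KO and WT at 3 sites, and the upstream one at -18.0 kb also has H3K4me3 in both and an ATAC-seq peak in all 6 libraries.

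Tek (ID 21687, chromosome 4, 94739086 to 94874976, plus strand), the angiopoietin receptor of quiescent HSC and endothelium, had few marked sites. Its 175.9 kb window held no H3K27ac peak in KO and 1 in WT, 56.2 kb into the gene, with a score of 53.2 and no ATAC-seq peak under it. MYC had 1 peak in KO at the edge of the window, with a score of 58.9, and none in WT. ATAC-seq peaks numbered 1 and 2 in KO MycHet, 0 and 3 in KO, and 0 and 3 in WT. Only the start was marked by more than one assay, by H3K4me3 in each genotype and an ATAC-seq peak in 4 libraries.

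Igf1r (ID 16001, chromosome 7, 67952257 to 68233668, plus strand) had 7 MYC peaks in KO and none in WT, all inside the gene and none at its start. Over all genes, 30.1% of windows had a MYC peak in KO and none in WT, and 0.0786% had at least 7 in KO and none in WT. Igf1r is long, and of the 611 windows at least as long, 1.96% (12 genes) had at least 7 KO and no WT peaks, and 31.1% had at least 1 KO and no WT peak. Windows that overlap share peaks, so these shares are not of independent genes. The KO peaks had low to middle scores. They were 93.6 at 32.9 kb from the start, 90.9 at 59.1 kb, 51.6 at 118.0 kb, 59.9 at 118.7 kb, 56.0 at 177.8 kb, 80.1 at 192.4 kb and 73.6 at 237.2 kb. The highest of them exceeded 68.5% of the KO list. With equal numbers of peaks 2 of the 7 were left, and with a score of at least 100 none was, so the count depends on how many KO peaks are kept.

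Most of these MYC sites were open chromatin in WT as well. Of the 7 sites, 6 overlapped an ATAC-seq peak of at least 1 library, where 36.4% of KO-only MYC regions over the genome did, and the site at 192.4 kb did not. The sites at 32.9, 118.7 and 237.2 kb were open in all 6 libraries. The site at 59.1 kb was open in both KO MycHet libraries, KO 1 and WT 2, the site at 118.0 kb in KO MycHet 1 and WT 2, and the site at 177.8 kb in 4 libraries, all but KO 1 and WT 1. Those at 32.9 and 237.2 kb lay under KO-only H3K27ac peaks with scores of 108 and 51.4, and the one at 177.8 kb under an H3K27ac peak of both genotypes. Over the genome 23.8% of KO-only MYC regions overlapped an H3K27ac peak in KO. Both of the sites near 118 kb touched an H3K4me3 peak called in WT only, with a score of 59.4.

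Igf1r had a second H3K4me3 region deep in the gene that scored above its promoter. It lay 177.2 kb from the start (chromosome 7, 68128003 to 68130909) with scores of 342 in KO and 473 in WT, against 198 in KO and 236 in WT at the promoter. It was open in all 6 ATAC-seq libraries, and no annotated gene other than Igf1r overlapped the KO or the WT peak. The H3K27ac region that begins there spanned 5752 bp, with a KO score of 121 and a highest WT score of 64.6, and was the widest H3K27ac region at any of the receptors. H3K27ac was KO only at 4 further sites of Igf1r, with scores of 51.4 to 108, and each of the 4 overlapped ATAC-seq peaks, while a WT-only region 47.3 kb in, with a score of 50.5, overlapped none. With a score of at least 100 required in both lists 2 regions were KO only. They were the one at 33.2 kb and the 5752 bp region, whose WT peaks fell under 100. With equal numbers of peaks 1 KO-only region was left. The number of ATAC-seq peaks at Igf1r was 16 and 17 in KO MycHet, 10 and 24 in KO, and 6 and 27 in WT. The groups overlapped.

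**Figure D4:**
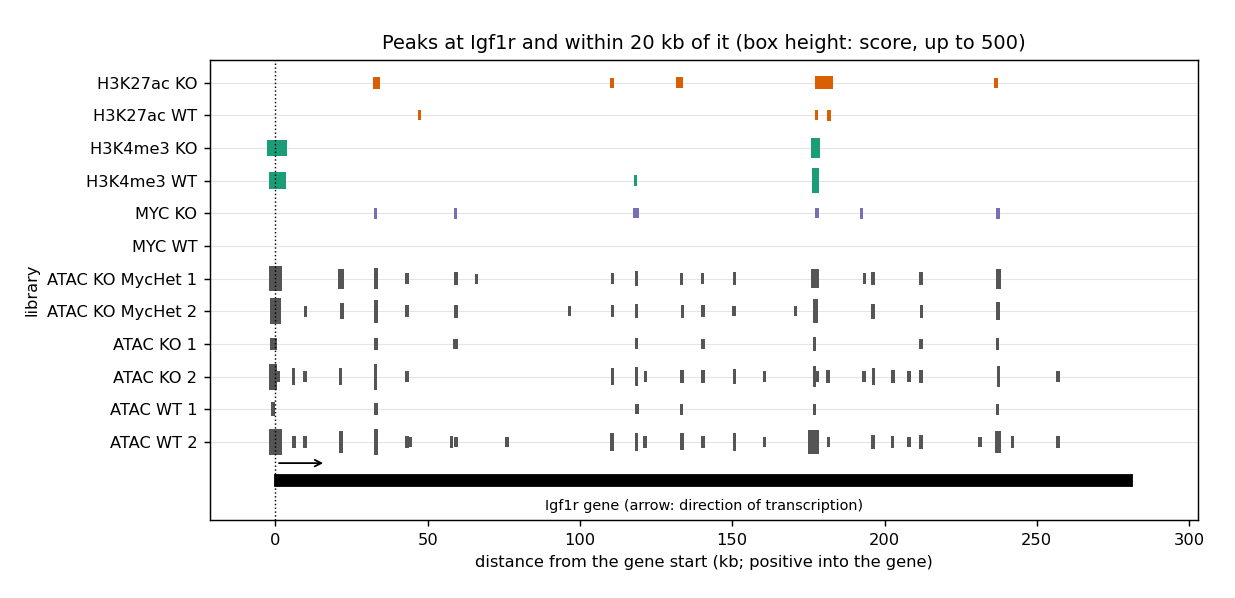
Peaks of each library (rows) at Igf1r against distance from its start in kb, drawn as for Flt3. The MYC row is filled at 7 peaks in KO (the pair near 118 kb is drawn touching) and empty in WT, and the H3K4me3 rows show the second region 177.2 kb into the gene in both genotypes.

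Csf2rb (ID 12983, chromosome 15, 78325800 to 78351001) had H3K27ac in KO only and no MYC in either genotype. Its 3 H3K27ac peaks scored 77.8, 62.7 and 51.6, and with a score of at least 100 or equal numbers of peaks none was left. Over all genes 28.2% of windows had an H3K27ac peak in KO and none in WT. The highest lay at -12.8 kb from the lower end of the gene, at a site open in 4 ATAC-seq libraries with scores of 221 and 294 in KO MycHet, 197 in KO 2 and 148 in WT 2. The other H3K27ac peaks had no ATAC-seq peak under them. At the edge of the window, at -21.6 kb from the lower end, an H3K4me3 region scored 305 in KO and 79.3 in WT, where the WT peak itself lay just outside the window. That region overlaps Csf2rb2, the neighbouring gene for the beta chain specific to IL-3 in mice. Csf2rb and Csf2rb2 are close copies, and how reads that match both were placed is not given in the sources used here, so the split of signal between them is uncertain.

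Il6st (ID 16195, chromosome 13, 112464070 to 112506860, plus strand) was marked almost only at its start. The start carried H3K4me3 in both genotypes and H3K27ac in KO only, where 24.9% of all starts had H3K27ac in KO and not WT. The H3K27ac peak was 511 bp wide and its score of 69.1 exceeded 27.4% of the KO list. ATAC-seq scores at the start were 557 and 608 in KO MycHet, 109 and 941 in KO, and 202 and 1109 in WT, so that it was open in every group and the groups overlapped. Beyond the start, Il6st had a MYC peak in WT only, 45.5 kb from the start with a score of 58.2, and ATAC-seq peaks in KO 2 and WT 2 alone.

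Tgfbr1 (ID 21812, chromosome 4, 47353222 to 47414926, plus strand), the signalling kinase of the TGF-beta receptor pair, had H3K4me3 and open chromatin but no H3K27ac at its start. H3K4me3 at the start spanned 4628 bp in KO and 3520 bp in WT. Its scores were above 57.9% of the KO list and 71.7% of the WT list. ATAC-seq scores at the start were 566 and 839 in KO MycHet, 204 and 1115 in KO, and 262 and 851 in WT, above 88.6% to 97.6% of the peaks of each list. H3K27ac was called in WT only, 37.5 and 69.8 kb from the start, with scores of 81.7 and 70.9. They were 356 and 185 bp wide, neither overlapped an ATAC-seq peak, and over the genome 18.0% of WT-only H3K27ac regions did. A MYC peak called in WT only, with a score of 95.3, overlapped the first of them, and KO had neither H3K27ac nor MYC anywhere in the window.

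Tgfbr2 (ID 21813, chromosome 9, 116087695 to 116175363, minus strand), the ligand-binding partner of Tgfbr1, had H3K27ac at 5 places in KO and 3 in WT, and its MYC sites differed between the genotypes. H3K27ac scored highest 91.0 kb from the start, just past the end of the gene, with 365 in KO and 66.1 in WT. It scored 217 and 79.1 at the start, and 106 and 95.5 at a site 14.9 kb in. KO-only H3K27ac regions lay 51.6 kb in, with a score of 104, and 37.7 kb in, with a score of 72.3, both in open chromatin. With a score of at least 100 required in both lists 4 regions were KO only. They were the one at 51.6 kb and the 3 shared regions, whose WT peaks scored under 100. With 50% overlap 4 were KO only, since a WT peak that covered less than 50% of a shared region no longer counted. With equal numbers of peaks 1 KO-only region was left. MYC had 1 region in KO only, 15.1 kb from the start, with a score of 121, and 3 in WT only. Of the WT-only regions the highest was 52.0 kb from the start with a score of 126, above the 21.7 kb and 90.8 kb sites at 78.7 and 56.3. All 4 overlapped an ATAC-seq peak of at least 1 library, against 36.4% of KO-only and 40.8% of WT-only MYC regions over the genome. The sites at 15.1, 52.0 and 90.8 kb were open in 5, 6 and 5 libraries. The WT-only site at 21.7 kb was open in 1 library, KO 2, and in no WT library. The WT-only site at 52.0 kb thus lay where H3K27ac was called in KO only. Among all MYC regions 17.8% were WT only, and with 1 library per genotype these differences have no replicate check.

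**Figure D5:**
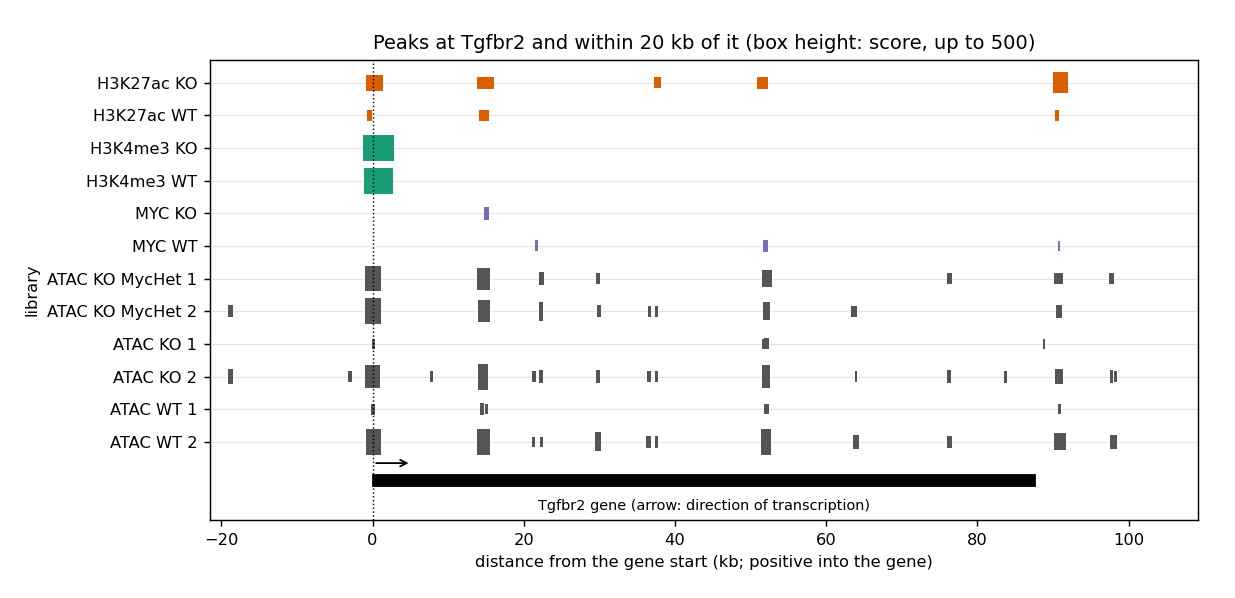
Peaks of each library (rows) at Tgfbr2 against distance from its start in kb, drawn as for Flt3. The MYC row has 1 box in KO, 15.1 kb from the start, and 3 boxes in WT at other positions, while H3K4me3 is present at the start alone in both genotypes.

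No ATAC-seq region at the receptors was called in both libraries of KO or of WT and in neither of the other. Merged over the 6 libraries, the 7 genes had 86 ATAC-seq regions, 13 of them in all 6 libraries, where 14.7% of all regions were in all 6. Over the genome 0.175% of regions were open in both KO and neither WT library, and 0.132% in both WT and neither KO library. None was open in both KO MycHet and neither KO library (1.21% of all regions) or in both KO and neither KO MycHet library (0.319%). The number of ATAC-seq peaks at Tgfbr2 was 8 and 10 in KO MycHet, 4 and 17 in KO, and 5 and 12 in WT. It was 8 and 12 at Flt3 in KO MycHet, 4 and 12 in KO, and 4 and 14 in WT. The peak counts of the groups overlapped or tied at every receptor in both comparisons, and the two-sided exact permutation test over 4 libraries gave p = 1.0 each time. With 2 libraries against 2 that test cannot go below 0.333.

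The longer lists alone differed at some sites in each direction. Between KO 2 and WT 2, the receptors had 10 regions in KO 2 only, 10 in WT 2 only and 60 in both, against 19.9% of all regions in KO 2 only and 15.1% in WT 2 only. Igf1r had 1 region in KO 2 only and 6 in WT 2 only, and Tgfbr2 had 4 in KO 2 only and 0 in WT 2 only. A region upstream of Tgfbr1, at -6.1 kb from its start, was open in both KO MycHet libraries, with scores of 85.0 and 102, in KO 2 with a score of 116, and in neither WT library nor KO 1. Of all regions, 3.72% were open in both KO MycHet and neither WT library.

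Genes around the receptors were counted in 6 lists by the peaks at their starts. H3K27ac was KO only at 7 of 17 other type I cytokine receptor genes, 1 of 15 other receptor tyrosine kinases, 3 of 10 other TGF-beta family receptors, 3 of 19 ligands, 10 of 21 signal carriers and 7 of 15 feedback inhibitors, and WT only at none, where 24.9% of all starts were KO only and 0.619% WT only. Genes among the 2 highest KO scores of a list were the common gamma chain gene Il2rg (225) and the IL-6 receptor gene Il6ra (224), the insulin receptor gene Insr (70.4), the BMP receptor gene Bmpr2 (118), the ligand gene Tgfb1 (153), the phosphatase gene Ptpn11 (274) and the STAT5 target and inhibitor gene Cish (349). MYC was KO only at 2 of 17, 1 of 15, 2 of 10, 0 of 19, 4 of 21 and 4 of 15 genes of these lists. It was WT only at 2 of 21 signal carriers, 1 of 15 feedback inhibitors and none of the other lists. Of all starts 13.5% were KO only and 2.08% WT only. For genes without a known strand either end was taken as the start, as for 5 of the 15 receptor tyrosine kinases. The shares of all starts cover only the 17274 genes with a known strand, so the 2 are not fully alike. The KO-only genes included Csf2rb2 (109) and the IL-3 receptor alpha chain gene Il3ra (79.1), the stem cell factor receptor gene Kit (70.6), the co-receptor gene Tgfbr3 (55.6), the phosphatase gene Ptpn11 (122) and the PI3K subunit gene Pik3ca (104). H3K4me3 lay at the start in both genotypes at 11 of 17, 7 of 15, 8 of 10, 5 of 19, 18 of 21 and 14 of 15 genes, against 50.9% of all starts. H3K4me3 was KO only at 2 of the receptor tyrosine kinases and at 1 each of the TGF-beta family receptors, ligands and signal carriers, where 2.63% of all starts were. It was WT only at Il7r, Kit and Irs2, named after their values were seen, where 1.41% of all starts were. Kit thus had MYC in KO only and H3K4me3 in WT only at its start, as starts were taken here. Whether 1 or both annotated ends of Kit were searched is not given here, so the 2 peaks may lie at different ends.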

How the data were processed

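Of 20 samples, the 12 with a peak list were used: 6 ChIP-seq and 6 ATAC-seq libraries. ATAC-seq used 50000 cells a library, per the labels. The 8 RNA-seq samples were not analysed here. The authors deposited 1 list per sample with a score for each peak, and the peak names in the files are those MACS gives. The build was mm10, per the submitters' processing notes. The labels and files used here state no caller version, settings or input control.

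Peaks on chromosomes 1 to 19 and X were joined to RefSeq genes with Python 3.11.15 and pandas 2.3.3, using a flank of 20 kb and 1 kb around starts. Overlaps of at least 1 bp were tested on simulated intervals against bedtools 2.31.1. ATAC-seq peak counts were compared by exact permutation (scipy 1.17.1). Nothing says that the ATAC-seq libraries of a group came from separate mice, so their spread may be technical. Exon and intron positions were not used here.

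The genes and lists were chosen with earlier results of these data known. For lists, the 2 highest KO-only starts were eligible to be named. Regions in 1 genotype were named at a score of at least 100, and those named below it were chosen after their values were seen, as was the comparison of H3K4me3 scores. Alternatives were a score minimum of 100, gene bodies, a flank of 5 kb, equal numbers of peaks, 50% overlap, midpoints and leaving out ATAC-seq libraries. One result on a list gene is not reported here.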

Additional observations from a re-analysis of the deposited data

How the results depend on the processing

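Over the counts of regions for all 7 genes together, 31 values stayed within 1.5 times the reported count and 20 did not. Most of the 31 were counts of 0 that stayed 0, and a narrower window cannot raise a 0, so the 31 is no measure of stability. For single genes 18 values stayed within 1.5 times and 12 did not. KO-only H3K27ac regions were 14 as reported and 4 with equal numbers of peaks. KO-only MYC regions were 10 as reported, 1 with a score of at least 100 and 3 with equal numbers. KO-only H3K4me3 regions were 0 as reported and 2 with a score of at least 100 or 50% overlap. Both times the 2 were regions shared by KO and WT in the reported count. The score minimum was set on every list before merging, so a shared region becomes KO only when its WT peak falls under 100. With 50% overlap it does so when its WT peak covers less than 50% of it. ATAC-seq regions in KO and not WT were 0 as reported, 0 to 10 when a library was left out and 10 between the second libraries. Those in KO MycHet and not KO were 0 as reported, 2 with a score of at least 100, with equal numbers or with 50% overlap, 1 to 21 when a library was left out, and 5 between the second libraries. Those in KO and not KO MycHet were 0 as reported, 0 to 20 when a library was left out and 24 between the second libraries. Leaving out a library lets 1 list stand for its group, and the 21 came without KO 2 and the 20 and the upper 10 without KO 1. The comparisons between second libraries were added after seeing the list lengths. The H3K4me3 score at the start was lower in KO at 7 of 7 genes also by place in the list and within 5 kb, both added after seeing the data. At these genes a window of 5 kb found the same peaks as 1 kb, and equal numbers of peaks left the scores as they were by construction. Score over width lowers KO at most starts. None of these 3 settings therefore bears on it. With the library number as a replicate block, added after seeing the data, the smallest exact p over the ATAC-seq peak counts was 1.0 for KO against WT and for KO MycHet against KO, as without it, and 2 pairs cannot go below 0.5. The titles number the second libraries only, so the pairing is not given by the labels. Unknown depth and an unstated score scale limit each comparison of scores.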
